A study of Mus musculus with 23 samples.

Results

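The chaperone and heat shock protein genes were followed through 4 states of mouse pluripotent stem cells and in 1 preparation of fibroblasts. A gene belonged to the group if its symbol on the array platform began with Hsp followed by a, b, d, e, h or a digit, with Dnaja, Dnajb or Dnajc, or with Cct followed by a digit. This rule was met by 59 symbols. Each gene was followed by its brightest probe over the 23 arrays. In total 55 of the 59 were detected, at a detection p under 0.01, on 3 or more of the 23 arrays, among 9843 named genes detected as often. The 55 members were 8 Cct genes, 2 genes of the mitochondrial chaperonin, 6 HSP70 genes, 2 HSP90 genes, 4 small heat shock protein genes, 2 genes for proteins that bind heat shock proteins, 2 Dnaja, 7 Dnajb and 22 Dnajc genes. Dnaja1 and Hspa1a were detected on 2 arrays each, Hspa12b on 1 and Hspa4l on 0, and these 4 were left out. Hspa1b and Hsp90ab1 were not analysed here.

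RNA levels were read on Illumina mouse whole-genome bead arrays. The labels give a C57Bl6/CBA/129 background for the samples, and the lines were heterozygous or null for Blimp1, the gene of a transcriptional repressor needed for primordial germ cells, so that no pluripotent line was wild type. Embryonic stem cells (ESCs) of 3 heterozygous lines (PAN1, PUM3, CHE4) and 3 null lines (JAG1, JAG2, B12) were grown in serum with LIF, and the same 6 lines in 2i/LIF, N2B27 medium with the MEK inhibitor PD0325901, the GSK3 inhibitor CHIR99021 and LIF. Epiblast stem cells (epiSCs) of 3 heterozygous lines (BL3, BL4, BL7) and 2 null lines (BL2, BL6) were kept on fibroblast feeders with activin A, bFGF and serum replacement. ESC-like cells that had reverted from epiSCs (rESCs) came from 2 heterozygous lines (BL3, BL7) and 3 null lines (J2.3, BL2, BL6), and grew on feeders in serum with LIF. EpiSC lines of the study, BL2, BL3 and BL4 by name among them, came from epiblasts of heterozygous intercrosses, and the methods also describe null epiSCs made from null ESCs carried in tetraploid host blastocysts. The fibroblast array (MEF) is labelled wild type with the same mixed background, whereas the methods describe MEFs from the MF1 strain. Each line had 1 array in a state, so that n counts lines, and nothing says that an array was repeated from a separate culture.

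Chaperones bind proteins that are not yet folded or have lost their fold. HSP70 proteins do so in cycles of ATP hydrolysis that the J-domain proteins (the Dnaja, Dnajb and Dnajc families) start and that nucleotide exchange factors such as Hsph1, Hspa4 and Hspbp1 end. HSP90 takes over kinases and receptors at a late step, the ring of Cct proteins folds actin and tubulin, Hspd1 and its lid Hspe1 fold proteins in mitochondria, and small heat shock proteins hold unfolded chains without ATP. Heat shock factor 1 drives many of these genes through heat shock elements, arrays of inverted GAA and TTC triplets, and the endoplasmic reticulum branch, with Hspa5, Hsp90b1, Dnajb9, Dnajc3 and Dnajc10, answers to the unfolded protein response, in part through the endoplasmic reticulum stress element (ERSE).

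RefSeq promoter entries on GRCm38.p6 were matched by symbol for 43 of the 55 members. In the 250 bases before the start, the heat shock cores GAANNTTC or TTCNNGAA, both of which read the same on either strand and can overlap, were held by 11 of the 43 members (25.6%) and by 14.5% of 27025 genes. The ERSE, searched on both strands, was held by 3 of the 43 (6.98%) and by 0.13% of all genes. The window of Hspb1, shown because this gene had the largest change of the group, lies on the forward strand at chr5:135887669-135887918 and holds 2 cores, marked in capitals.
Hspb1: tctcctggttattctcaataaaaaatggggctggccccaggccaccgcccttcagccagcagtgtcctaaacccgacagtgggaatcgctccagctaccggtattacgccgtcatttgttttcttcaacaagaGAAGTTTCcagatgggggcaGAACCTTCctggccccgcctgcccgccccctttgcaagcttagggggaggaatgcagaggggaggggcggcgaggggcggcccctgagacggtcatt
Stretches of 30 bases with a core in capitals follow for Hspe1, Hsph1, Hspb6 and Dnajc10, members whose changes are described, and with the ERSE in capitals for Hspa5, Hsp90b1 and Dnajc3. The first is on the forward strand at chr1:55088053-55088082, where the windows of Hspe1 and of Hspd1, which is transcribed away from it, overlap. The next is on the reverse strand at chr5:149636351-149636380. Those of Hspb6 and Dnajc10 are on the forward strand at chr7:30553170-30553199 and chr2:80315273-80315302. The ERSE stretches lie at chr2:34772020-34772049 (forward), chr10:86705632-86705661 (reverse) and chr14:118937822-118937851 (forward).
Hspe1: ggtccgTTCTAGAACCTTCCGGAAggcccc
Hsph1: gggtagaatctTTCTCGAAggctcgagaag
Hspb6: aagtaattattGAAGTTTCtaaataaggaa
Dnajc10: aacaattttatTTCTAGAAaactttaatta
Hspa5: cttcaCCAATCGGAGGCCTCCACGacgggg
Hsp90b1: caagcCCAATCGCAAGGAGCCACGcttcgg
Dnajc3: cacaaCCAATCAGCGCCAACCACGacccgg
The cores were found on both sides of the comparisons. They were in 2 of 4 members with an entry that were higher in epiSCs than in ESCs in serum (Dnajb4, Dnajc10) and 1 of 7 that were lower (Hspb1), and in 1 of 8 that were higher in 2i/LIF (Hsph1) and 1 of 2 that were lower (Hspb6).

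Between 12197 and 14599 probes were detected per array, and the median signal of an array was 68.9 to 107. Levels are log2 signals after background correction and quantile normalization of all 23 arrays together. Changes come from limma on the arrays of each comparison normalized together, and a member was called at an adjusted p under 0.01. A level of one probe was not set against that of another. The comparisons of epiSCs, of 2i/LIF and of rESCs with ESCs in serum share the 6 serum arrays, and the comparisons of epiSCs with ESCs and of rESCs with epiSCs share the 5 epiSC arrays. In the marker lists, all 10 naive ESC genes were detected on every ESC and rESC array and 3 to 10 of them on the epiSC arrays, with 10 in BL6, and 9 or 10 of 10 epiblast genes were detected on each epiSC array. Of 24 fibroblast genes 18 to 20 were detected in ESCs in serum, 16 to 20 in epiSCs, 18 to 21 in rESCs, 5 to 8 in 2i/LIF and 24 in MEFs.

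Some arrays stood apart in how probes of the same gene related to each other. For 1477 genes outside the group with 2 or more probes detected on all 23 arrays, the difference between the brightest and the next probe was taken on each array, and the first principal component of these differences held 30.8% of their variance. Its value, signed so that the MEF array is positive and here called the sister-probe score, was 7.13 to 14.5 on 6 arrays (PUM3 ESCs in serum, BL2 and BL6 epiSCs, J2.3 and BL2 rESCs, and MEFs) and -10.4 to 1.5 on the other 17. Both null epiSC lines were among the 6, and no array in 2i/LIF was. What the score stands for was not tested.

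**Figure D1:**
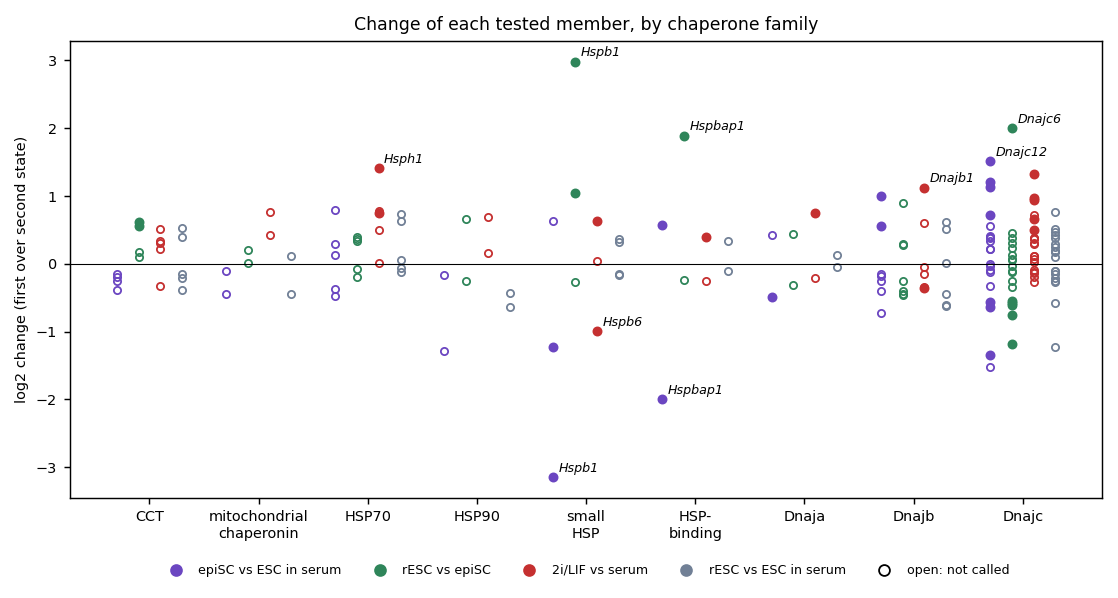
Log2 change of each tested member (points) in the 4 comparisons of states, by chaperone family. Filled points were called at an adjusted p under 0.01 in limma and open points were not. The small heat shock protein gene Hspb1 has the largest change, -3.14 in epiSCs against ESCs in serum and 2.98 in rESCs against epiSCs, and the rESC against ESC column holds open points alone.

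In epiSCs the small heat shock protein genes Hspb1 and Hspb8 and the gene Hspbap1 were lower than in ESCs in serum, and the J-domain genes Dnajc12, Dnajc10, Dnajc5 and Dnajb1 were higher. Of 47 members tested 7 were higher, 7 lower and 33 did not pass, beside 39.4% of 8402 named genes called (20.8% higher and 18.7% lower). Their median log2 change was -0.12 against 0.03 over all named genes. No Cct, HSP70, HSP90 or mitochondrial chaperonin gene was called on its brightest probe in this comparison, as the plot of changes by family shows. Of these families 4 of 8 Cct and 5 of 6 HSP70 genes were tested. On the brightest probes, Hsp90aa1 (-1.29, adjusted p = 0.052) and Hsph1 (0.80, adjusted p = 0.019) had the widest changes among them. Dimmer probes of Hsp90aa1 (-1.20, limma adjusted p = 1.6e-04) and Hspa9 (-0.83, limma adjusted p = 5.0e-04) were called. Without the arrays of high sister-probe score the change on the brightest probe of Hsp90aa1 was -0.83 and passed (limma adjusted p = 0.0068). Leaving them out took both null epiSC lines, BL2 and BL6, from the fit, whereas the ESCs kept lines of both genotypes.

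Hspb1 encodes the small heat shock protein known in the mouse as HSP25 (chromosome 5 from 135887919 to 135889563). Its log2 level in ESCs in serum ran from 10.19 to 11.15 with a median of 10.90. In epiSCs it was 6.93, 6.85 and 7.55 in the heterozygous lines BL3, BL4 and BL7 and 7.30 and 9.35 in the null lines BL2 and BL6. In rESCs it was 10.84 in BL3, 10.61 in BL7, 11.11 in J2.3, 10.07 in BL2 and 10.50 in BL6. No epiSC array reached the levels of ESCs or rESCs, and BL6, the epiSC line with all 10 naive ESC genes detected, was the highest of the epiSCs. The part of the naive ESC genes in this level was not tested. The change was -3.14 in epiSCs against ESCs in serum (standard error 0.38, limma adjusted p = 3.0e-05) and 2.98 in rESCs against epiSCs (standard error 0.41, limma adjusted p = 2.4e-04). Without the arrays of high sister-probe score, BL6 epiSCs among them, the changes were -3.70 and 3.48. No null epiSC line was left in these fits. In 2i/LIF the level was 10.60 to 11.07, and the change against serum was 0.04 (adjusted p = 0.84). In such cultures, fewer cells with a transcript and less of it per cell cannot be told apart.

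Hspbap1 is named for the binding of its product to HSPB1 (chromosome 16 from 35769726 to 35828462). Its level was 9.70 to 10.19 in ESCs in serum, with a median of 9.85. In the epiSC lines BL3, BL4, BL7 and BL2 it was 7.65, 7.68, 7.23 and 7.70, and in BL6 it was 8.95. The rESCs lay between 9.57 and 10.05. The epiSCs were below all ESC and rESC arrays, again with BL6 nearest to them. Hspbap1 fell by 2.00 from ESCs to epiSCs (standard error 0.24, limma adjusted p = 3.3e-05) and was 1.89 higher in rESCs than in epiSCs (adjusted p = 2.7e-04).

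Hspb8, a small heat shock protein that works with the co-chaperone BAG3, was at 9.33 to 10.13 in ESCs in serum. In epiSCs it was 8.50, 7.74, 8.32, 8.42 and 8.66 in BL3, BL4, BL7, BL2 and BL6, and in rESCs 9.28 to 9.64. It fell by 1.22 in epiSCs (standard error 0.18, limma adjusted p = 1.6e-04), was 1.05 higher in rESCs (adjusted p = 5.8e-04) and was also higher in 2i/LIF than in serum, by 0.62 (adjusted p = 0.00285), a call that ended with the sister-probe score as a covariate (adjusted p = 0.030). A second Hspb8 probe gave -1.11, 1.16 and 0.63 and was called in all 3 comparisons.

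**Figure D2:**
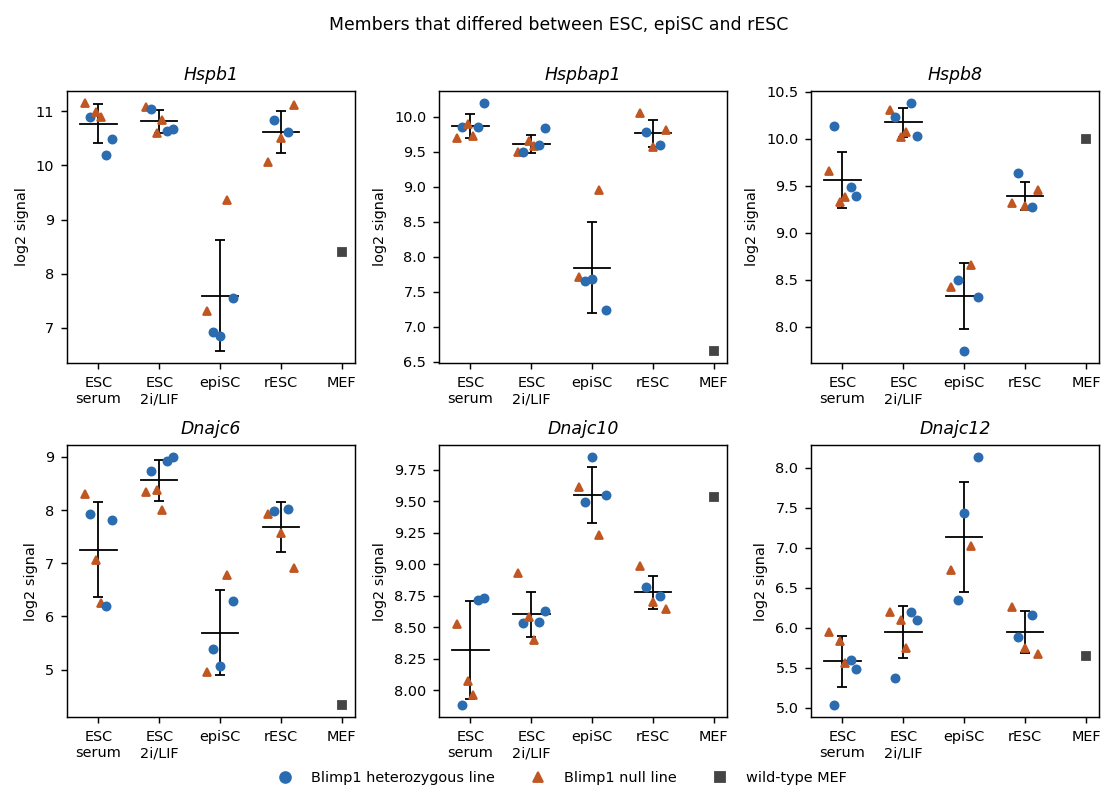
Log2 signal of 6 members on each of the 23 arrays (points, coloured by genotype) by state, with the mean and SD of each state (lines and bars, n = 6 ESC lines in each medium, 5 epiSC and 5 rESC lines) beside the single MEF array. Hspb1, Hspbap1 and Hspb8 dip in epiSCs alone among the pluripotent states, and Dnajc10 and Dnajc12 are highest there. BL6 is the high epiSC point of Hspb1 (9.35) and Hspbap1 (8.95).

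The neuronal J-domain gene Dnajc6, whose product auxilin uncoats clathrin vesicles, was 2.00 higher in rESCs than in epiSCs (standard error 0.36, limma adjusted p = 0.0013). It was detected in 3 of 5 epiSC lines, where its level was 5.39, 5.07, 6.30, 4.95 and 6.78 in BL3, BL4, BL7, BL2 and BL6, and it was 6.91 to 8.02 in rESCs. ESCs in serum were spread from 6.19 to 8.29 and overlapped with the epiSCs, and the change of -1.53 from ESCs to epiSCs missed the threshold (adjusted p = 0.01005). A second Dnajc6 probe, with a change of -1.37, passed (adjusted p = 0.0067).

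Among the genes that were higher in epiSCs, Dnajc10 encodes a disulfide reductase of the endoplasmic reticulum (chromosome 2 from 80315446 to 80354055). Its level was 9.49, 9.85, 9.55, 9.61 and 9.23 in the epiSCs BL3, BL4, BL7, BL2 and BL6, 7.88 to 8.73 in ESCs in serum and 8.64 to 8.98 in rESCs. The epiSC arrays lay above all arrays of both other states. The change was 1.21 against ESCs (standard error 0.18, limma adjusted p = 1.6e-04) and -0.76 in rESCs against epiSCs (adjusted p = 0.0011). The call in rESCs against epiSCs ended with the mean of detected probes (limma adjusted p = 0.042). The second Dnajc10 probe had a change of 0.07 there. Dnajc12, detected on 5 of 6 ESC arrays in serum and a partner of the aromatic amino acid hydroxylases, was spread within epiSCs, at 6.35, 7.44, 8.13, 6.72 and 7.02 in the same order of lines, against 5.03 to 5.95 in ESCs. It was 1.52 higher in epiSCs (standard error 0.27, limma adjusted p = 5.2e-04) and lower in rESCs than in epiSCs, a change of -1.19 whose call (adjusted p = 0.00705) ended under 10 of 12 alternatives and without any 1 of 6 arrays (BL3, BL7, J2.3 or BL6 rESCs, BL4 or BL6 epiSCs).

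Dnajc5, the cysteine string protein of secretory vesicles, was at 10.19 to 10.53 in epiSCs, 8.84 to 9.60 in ESCs in serum and 9.42 to 9.85 in rESCs, with changes of 1.13 (standard error 0.15, limma adjusted p = 5.1e-05) and -0.61 (adjusted p = 0.0024). The rESCs lay below all epiSCs and overlapped with the ESCs. Dnajb1, the stress-inducible partner of cytosolic HSP70, was at 9.80 to 10.09 in epiSCs and 8.43 to 9.58 in ESCs, a change of 1.00 (standard error 0.19, limma adjusted p = 9.5e-04). The mitochondrial J-domain gene Dnajc30 was higher in epiSCs by 0.72 (adjusted p = 3.4e-04) and lower in rESCs than in epiSCs (-0.55, adjusted p = 0.00215). The exchange factor gene Hspbp1 (0.57, adjusted p = 0.0027) and Dnajb4 (0.56, adjusted p = 0.0067) completed the 7 that were higher. Dnajb4 was detected on 1 of 6 ESC arrays, so that it entered the test through the epiSCs. The size of its change depends on signals near background, and its place among the 7 higher members is no support for a direction.

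Lower in epiSCs were also the mitochondrial Dnaja3 (-0.48, adjusted p = 0.0054), the splicing-associated Dnajc8 (-0.56, adjusted p = 0.0027), Dnajc4 (-0.63, adjusted p = 0.0047) and Dnajc5g. Dnajc5g was detected on 5 of 6 ESC arrays and on no epiSC array, so that it entered the test through the ESCs alone and its place among the 7 lower members is no support for a direction. It was at least 1.76-fold lower (limma adjusted p = 0.0056), a bound against the lowest detected signals of the epiSC arrays. Its call ended when dim probes were kept and without any 1 of 4 epiSC arrays (BL3, BL4, BL7 or BL2), where its adjusted p reached 0.026. It could be tested in 6 of the 11 fits that leave out an array. Dnajc4 was no longer called without any 1 of 5 arrays (BL4, BL7 or BL2 epiSCs, JAG1 or JAG2 ESCs) with no filter on dim probes or without the arrays of high sister-probe score, where its adjusted p reached 0.040, and Hspbp1 lost its call without those arrays (its adjusted p was up to 0.024 over all alternatives).

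Of 46 members tested between rESCs and epiSCs, 6 were higher in rESCs, 5 were lower and 35 did not pass. Among 8168 named genes 25.2% were called, 10.8% higher and 14.4% lower, so that the share of members called (11 of 46) lay near that of all genes. Beside Hspb1, Hspbap1, Hspb8 and Dnajc6, the chaperonin subunit genes Cct6a (0.61, adjusted p = 0.0041) and Cct3 (0.56, adjusted p = 0.0080) were higher. Cct6a was at 12.14 to 12.51 in rESCs and 11.39 to 11.95 in epiSCs, with no overlap, and Cct3 at 11.23 to 11.65 and 10.72 to 11.30, with an overlap. Cct4 and Cct8 had changes of 0.10 (adjusted p = 0.51) and 0.18 (adjusted p = 0.64), and that of Cct8 was 0.33 without the arrays of high sister-probe score (adjusted p = 0.15). The call of Cct3 ended without any 1 of 8 of the 10 arrays (all but the J2.3 rESCs and the BL6 epiSCs). It also ended with no filter on dim probes, the mean of detected probes or genotype as a covariate. The second probe of Cct3 did not pass (0.37, limma adjusted p = 0.052). The call of Cct6a ended without BL7 or BL2 rESCs or BL3 or BL7 epiSCs. Lower in rESCs were Dnajc12, Dnajc10, Dnajc5, Dnajc30 and Dnajc16 (-0.57, adjusted p = 0.0029). Without the arrays of high sister-probe score 9 members were called, 6 of them among the 11. The calls of Dnajc5, Dnajc12, Dnajc16, Dnajc30 and Cct6a ended in that fit, which held no null epiSC line. Over the 4 lines with both states, 7 members were called with the cell line as a block and 10 without it. The block ended the calls of Dnajc5 (adjusted p = 0.018), Dnajc30 (adjusted p = 0.026), Cct6a, Cct3 and Dnajc12, the last 3 of which were not called over these 4 lines without the block either. Hspb1, Hspbap1, Hspb8 and Dnajc6 were called under each alternative and without any 1 array.

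No member was called between rESCs and ESCs in serum by limma. Of the 47 tested, 14 had an unadjusted p under 0.05 and 3 an adjusted p under 0.05. The 3 were Dnajc11 (0.76), Hspa8 (0.63) and Cct6a (0.52), all higher in rESCs. Among 8148 named genes 2200 had an unadjusted p under 0.05. An adjusted p under 0.05 was held by 207 that were higher and 212 that were lower. The shares of members at these 2 thresholds lay near those of all named genes. Of the named genes 0.196% were called, 0.0368% higher and 0.16% lower. With all 22 pluripotent arrays fitted together 3 members were called. The share of all named genes called in that fit was not computed, so that this count cannot be set against 0.196%. Hspb1 had a change of -0.15 (standard error 0.21, adjusted p = 0.69) and Hspbap1 one of -0.11 (standard error 0.13, adjusted p = 0.64).

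Hsph1, Dnajb1, Hspa8, Dnajc7 and Dnajc11 were higher in ESCs in 2i/LIF than in the same lines in serum, and Hspb6 was lower. The media differ both in the serum and in the inhibitors they hold. The test called 11 of 47 members higher and 2 lower and left 34 uncalled, where 33% of 7996 named genes were called, 16% higher and 17% lower. The median log2 change of the members was 0.31 and that of all named genes 0.02. Of the 47 changes 34 were above 0, beside 4101 of 7996 over all named genes. The count holds Dnajc25, which entered the test through 2i/LIF. Neither the median nor the count was redone without the PUM3 array in serum, which has a high sister-probe score. The level of 20% of members, and of 4.67% of named genes, had a correlation under -0.7 with that score. The part of the score in the median and the count was not tested. All 5 HSP70 genes tested had changes above 0 on the brightest probe, and 2 of them, Hsph1 and Hspa8, were called. That of Hspa9 was 0.02 (limma adjusted p = 0.88), and its second probe gave -0.36 (limma adjusted p = 0.023). The other probes of Hspa2 and Hspa8 had changes above 0.

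Hsph1, an HSP110-type exchange factor (chromosome 5 from 149616843 to 149636498), was at 8.93 to 9.80 in 2i/LIF, with a median of 9.42, and at 7.49 to 8.05 in 5 of the ESC lines in serum. The sixth line in serum, B12, was at 9.10, level with its value in 2i/LIF, 9.11. The change was 1.41 (standard error 0.25, limma adjusted p = 4.5e-04). Dnajb1 was at 9.90 to 10.18 in 2i/LIF and 8.43 to 9.58 in serum, where B12 was again the highest, a change of 1.12 (standard error 0.18, limma adjusted p = 2.6e-04). Hspa8, the constitutive cytosolic HSP70, was at 13.25 to 13.55 in 2i/LIF and 12.31 to 13.06 in serum, with B12 highest, and its change was 0.75 (standard error 0.12, limma adjusted p = 3.1e-04). Neither Dnajb1 nor Hspa8 overlapped between the media.

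Dnajc7, which links HSP70 with HSP90, had the smallest p of the group, with levels of 10.27 to 10.63 in 2i/LIF and 9.14 to 9.73 in serum and a change of 0.95 (standard error 0.11, limma adjusted p = 2.7e-05). Dnajc11, of the mitochondrial membranes, was at 7.18 to 7.69 and 6.11 to 6.86, a change of 0.97 (standard error 0.15, limma adjusted p = 2.1e-04). Dnajc6 rose by 1.32 (adjusted p = 0.0066), and its call ended without any 1 of 7 arrays (PAN1, PUM3, CHE4 or JAG1 in 2i/LIF, PAN1, JAG1 or JAG2 in serum), when dim probes were kept and with the sister-probe score as a covariate (adjusted p up to 0.029). Dnaja2 (0.74), Dnajc25 (0.67), Dnajc5 (0.50) and Hspbp1 (0.40) were also higher, with adjusted p from 0.0012 to 0.0080. Dnajc25 was detected on 5 of 6 arrays in 2i/LIF and 1 of 6 in serum, so that it entered the test through 2i/LIF, the size of its change depends on signals near background, and its place among the 11 higher members is no support for a direction. The call of Dnajc5 ended without any 1 of 9 of the 12 arrays, all but PUM3 in serum and B12 in either medium, and that of Hspbp1 without any 1 of 5 (PAN1, PUM3 or B12 in 2i/LIF, CHE4 or JAG1 in serum). With the cell line as a block the calls of Hspbp1 (adjusted p = 0.012) and Dnajb12 (adjusted p = 0.017) ended. Hsp90aa1 (0.69, adjusted p = 0.14), Hspa4 (0.78, adjusted p = 0.038), Hspd1 (0.77, adjusted p = 0.015) and Hspe1 (0.43, adjusted p = 0.34) did not pass. Without the PUM3 array in serum, which has a high sister-probe score, these changes were 0.33, 0.58, 0.57 and 0.08 and did not pass either (adjusted p = 0.23, 0.075, 0.017 and 0.78). With the sister-probe score as a covariate 8 members were called in place of 13, 7 of them higher, and all 8 were among the 13. Without the PUM3 array in serum the count was 12.

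**Figure D3:**
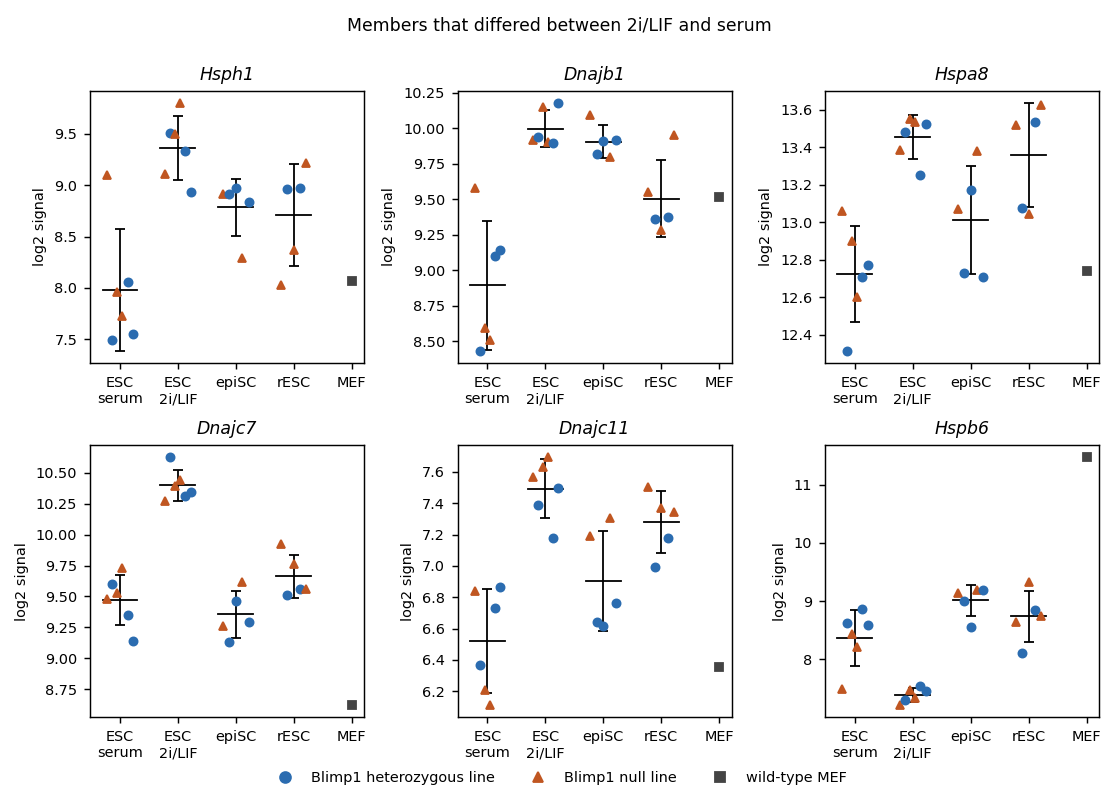
Log2 signal of 6 members on each of the 23 arrays (points, coloured by genotype) by state, with the mean and SD of each state (lines and bars, n = 6 ESC lines in each medium, 5 epiSC and 5 rESC lines) beside the single MEF array. The first 5 members are higher in 2i/LIF than in serum, with B12 as the high serum point of Hsph1 (9.10), and Hspb6 is lower in 2i/LIF and highest in MEFs (11.47).

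The 2 members that were lower in 2i/LIF were Hspb6 and Dnajb12, a J-domain protein of the endoplasmic reticulum membrane (-0.36, adjusted p = 0.0072). Dnajb12 lost its call under 4 alternatives and without any 1 of 9 arrays, all but JAG1 in 2i/LIF and B12 in either medium. Hspb6, the small heat shock protein of smooth and striated muscle, was at 7.21 to 7.54 in 2i/LIF and 7.49 to 8.87 in serum, with B12 as the one serum array within the range of 2i/LIF, and fell by 1.00 (standard error 0.19, limma adjusted p = 8.7e-04). It was 8.56 to 9.19 in epiSCs, 8.11 to 9.33 in rESCs and 11.47 in MEFs. Summed over the 24 fibroblast genes, the level on the log2 scale was 11.1 to 11.3 in 2i/LIF, 12.9 to 13.5 in serum, 12.4 to 12.8 in epiSCs, 12.5 to 14.2 in rESCs and 16.8 in MEFs, and its part in the change of Hspb6 was not tested. B12 had the lowest summed level of the serum arrays, 12.9.

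Other genes of protein folding went both ways between the media. Of 41 heat shock factors and co-chaperones outside the rule 33 were tested, and 7 were higher in 2i/LIF and 3 lower. Among 7996 named genes 33% were called between the media, 16% higher and 17% lower. The HSP90 co-chaperone genes Ptges3 (p23, 1.43), Chordc1 (0.85), Ahsa1 (0.74) and Ahsa2 (0.71), and Bag5 (0.66), were among the 7, and the HSP70 exchange factor of the endoplasmic reticulum Sil1 (-1.24) and the collagen chaperone Serpinh1 (-0.79) among the 3. Of 16 endoplasmic reticulum stress genes tested 1 was higher, Asns (1.28), and 5 were lower. They were Ddit3 (-3.35), Ppp1r15a (-1.55), Chac1 (-1.55), Trib3 (-1.23) and Herpud1 (-1.16), regulators and targets of the integrated stress and unfolded protein responses. In epiSCs against ESCs in serum, 5 of 33 heat shock factors and co-chaperones tested were higher and 3 lower, with Serpinh1 at 1.58 and Ahsa2 at 1.28. Of 15 endoplasmic reticulum stress genes tested 1 was higher (Chac1, 1.45) and 3 were lower, among them Ddit3 (-2.92). In this comparison 39.4% of 8402 named genes were called, 20.8% higher and 18.7% lower. Hsp90b1 did not pass, with log2 changes of 0.15 in 2i/LIF (adjusted p = 0.39) and -0.16 in epiSCs (adjusted p = 0.59), or 0.04 and 0.05 without the arrays of high sister-probe score, and nor did Dnajc3, with 0.07 (adjusted p = 0.75) and 0.34 (adjusted p = 0.084). Hspa5 was detected on 4 of 23 arrays and was not tested in these comparisons.

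Between null and heterozygous lines no member was called by limma in ESCs in serum (46 tested, 4 with an unadjusted p under 0.05), ESCs in 2i/LIF (52 and 4), rESCs (48 and 6) or over all states with the cell line as a random block (45 and 3), and 0% of all named genes were called in each of these. An unadjusted p under 0.05 was held by 379 of 8133, 433 of 7950, 345 of 8372 and 553 of 7935 named genes, in the same order. In epiSCs 2 of 48 members were called, both lower in the null lines, with 10 at an unadjusted p under 0.05. In this comparison 0.326% of 8595 named genes were called, 0% higher and 0.326% lower, and 1205 had an unadjusted p under 0.05. Hsp90aa1, the inducible cytosolic HSP90 (chromosome 12 from 110691036 to 110696395), was at 7.45 and 7.43 in the null lines BL2 and BL6 and at 9.71, 9.20 and 9.60 in the heterozygous lines BL3, BL4 and BL7, a change of -1.98 (standard error 0.19, limma adjusted p = 0.0085). Hspe1, the lid of the mitochondrial chaperonin, was at 7.32 and 7.03 in the null and 8.93, 9.13 and 9.16 in the heterozygous lines, a change of -1.82 (standard error 0.17, limma adjusted p = 0.0085). The groups did not overlap in either gene, and they did not in 18 of the 48 members tested, these 2 included. With 2 arrays against 3, a lack of overlap is no support for a difference, and its share over all genes was not computed. Both calls ended without any 1 of the 5 arrays, with the authors' value table, with no filter on dim probes, with the mean of a gene's detected probes, with the label number as a block and with the sister-probe score as a covariate. Both null epiSC arrays have a high sister-probe score and all 3 heterozygous ones do not, so that genotype and score cannot be told apart in epiSCs.

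Both genes were low wherever the score was high. Hsp90aa1 was at 8.21 in the heterozygous PUM3 line in serum against 9.95 to 10.68 in the other 5 lines, at 8.06 and 7.99 in J2.3 and BL2 rESCs against 9.71 to 10.74 in the other 3, and at 5.70 in MEFs. The same PUM3 line in 2i/LIF, with a score of -3.76, was at 10.53. BL6, a null line, was at 7.43 as epiSCs with a score of 10.4 and at 9.71 as rESCs with a score of 1.5. The PUM3 arrays also differ in medium, and the BL6 arrays in state and medium. What sets these levels was not tested. Hspe1 was at 7.04 in PUM3 in serum, at 7.55 and 7.01 in J2.3 and BL2 rESCs and at 8.54 to 9.70 on all 17 arrays with a low score. In rESCs the null lines had changes of -1.88 in Hsp90aa1 and -1.58 in Hspe1 that did not pass (adjusted p = 1.00).

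**Figure D4:**
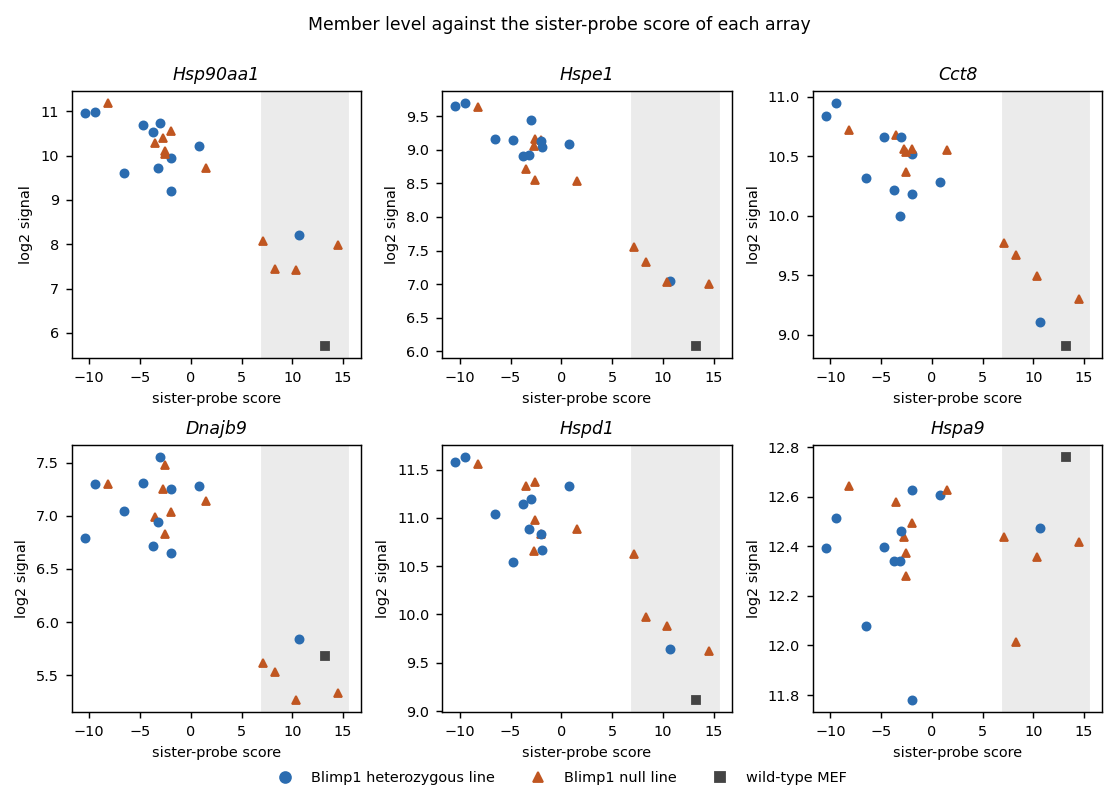
Log2 signal of 6 members (vertical axis) against the sister-probe score of each of the 23 arrays (horizontal axis, points coloured by genotype), with the 6 high-scoring arrays on grey. Hsp90aa1, Hspe1, Cct8 and Dnajb9 are lower on all 5 high-scoring pluripotent arrays than on the 17 others, and Hspa9 shows no such step.

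In 4 of 55 members (7.27%), against 2.46% of 9843 named genes, all 5 pluripotent arrays with a high score lay below the 17 others. They were Hsp90aa1, Hspe1, Cct8, a chaperonin subunit, and Dnajb9, a J-domain protein of the endoplasmic reticulum. Dnajb9 was at 5.27 to 5.84 on the 5 arrays and at 6.65 to 7.55 on the others, and Cct8 had medians of 9.49 and 10.55. The correlation of a member's level with the score over the 22 pluripotent arrays was under -0.7 in 11 of 55 members (20%) and in 4.67% of named genes, given as a description, since the arrays share lines. These 11 held Hspd1 (-0.88), Hsp90b1 (-0.88) and Hspa4 (-0.84) and the dim probes of Cct5 and Cct7, detected on 6 and 7 of 23 arrays. The most alike members of Hsp90aa1 over the 22 arrays were Hspe1 (r = 0.93), Dnajb9 (r = 0.91) and Cct8 (r = 0.90), and those of Hspb1 were Hspbap1 (r = 0.93), Hspb8 (r = 0.86) and Dnajc6 (r = 0.79).

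An interaction term tested whether null and heterozygous lines differed in the change between epiSCs and rESCs or between the media. No member was called (0 of 46 and 0 of 47 in limma, 1 and 2 with an unadjusted p under 0.05), and 0 of 13418 and 0 of 13274 probes were called in all. Of these probes 1.98% and 3.45% had an unadjusted p under 0.05.

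Probes of the same gene gave a further check on the members, since 19 of them had several detected probes, 77 probes in all for the 55. Over the 22 pluripotent arrays the correlation of the brightest probe with another probe of its gene ran from -0.36 to 0.99 in 22 pairs, with a median of 0.68. It was highest in Dnajc6 (0.99), Hspb8 (0.98) and Dnajc5 (0.96), and lowest in Dnajc19 (-0.36), Dnajc2 (0.11) and Dnajc16 (0.19). Both probes of Hspb8 were called in the same 3 comparisons, as were both of Cct6a in rESCs against epiSCs. The call of Dnajc8 in epiSCs ended with the mean of its detected probes, the second of which had a change of -0.22 (adjusted p = 0.56).

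The 3 probes of Hspa8 did not move together. Probe ILMN_1246458 followed the brightest probe, ILMN_2918479 (r = 0.84), and also rose in 2i/LIF, by 0.68 (adjusted p = 0.0010). Probe ILMN_1249586 had an r of 0.23 with the brightest and -0.89 with the sister-probe score, at 8.16 to 9.80 on the 5 high-scoring pluripotent arrays and 9.65 to 11.56 on the others, and its change of 1.15 in 2i/LIF did not pass (adjusted p = 0.019). The second probe of Hspd1, ILMN_2639036, was called in 2i/LIF (0.50, adjusted p = 0.0058) where the brightest was not (0.77, adjusted p = 0.015).

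**Figure D5:**
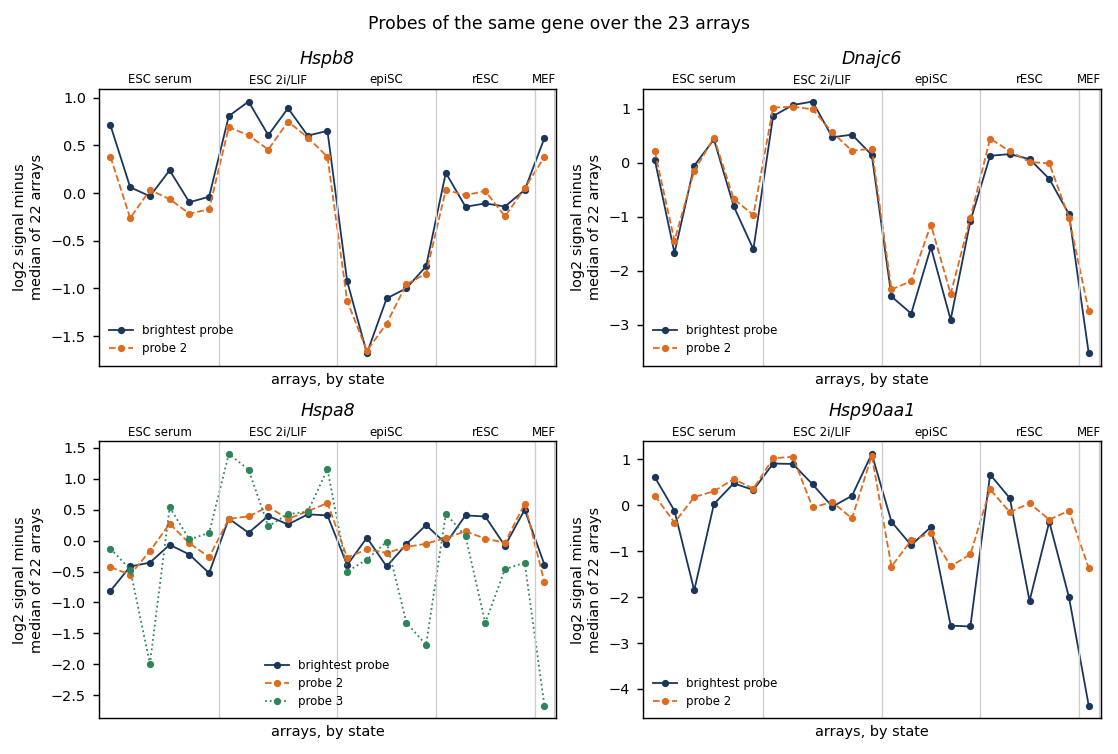
Log2 signal of each detected probe of Hspb8, Dnajc6, Hspa8 and Hsp90aa1 minus its own median over the 22 pluripotent arrays (vertical axis), on the 23 arrays ordered by state (horizontal axis). Both probes of Hspb8 (r = 0.98) and of Dnajc6 (r = 0.99) run together, whereas probe 3 of Hspa8 and the brightest probe of Hsp90aa1 drop on arrays where the other probes of the gene do not.

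In Hsp90aa1 the call depended on the probe. The dimmer probe, ILMN_2752883, was lower in epiSCs than in ESCs in serum by a change of -1.20 (limma adjusted p = 1.6e-04) and 1.01 higher in rESCs than in epiSCs (adjusted p = 0.0014). It was at 6.22 in PUM3 ESCs in serum, 5.93 in J2.3 rESCs and 6.09 in BL2 rESCs, within the range of the other lines of the same state, whereas the brightest probe, ILMN_2668319, was low on these arrays. On the dimmer probe BL3, BL4, BL7, BL2 and BL6 epiSCs were at 4.71, 5.28, 5.44, 4.72 and 4.98, with BL4 and BL7 detected, against 5.67 to 6.62 in ESCs in serum and 5.73 to 6.39 in rESCs. The brightest gave -1.29 (adjusted p = 0.052) and 0.66 (adjusted p = 0.45).

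Among genes with several probes tested, 9 of 16 had a call in epiSCs against ESCs in serum and 3 were called by all their probes, 11 of 17 and 3 in rESCs against epiSCs, and 7 of 15 and 2 in 2i/LIF. Of all probes tested, 37.1%, 23.2% and 31.1% were called in these comparisons. These are shares of single probes. A gene with several probes has more chances of a call, so that the counts of genes cannot be set against them. The share among other genes with several probes was not computed. No gene had calls in opposite directions. A called probe stood beside one of opposite sign in Dnajb6 in 2i/LIF (1.04, adjusted p = 0.0072, against -0.08) and in Dnajc10 in rESCs against epiSCs (-0.76 against 0.07). The 4 probes of Dnajb6, a J-domain protein that holds back aggregates, gave -0.39, -0.30, -1.08 and -0.53 in epiSCs, of which -1.08 was called (adjusted p = 5.9e-04), while the brightest probe was not called in any of the 4 comparisons of states. In Hspa9, the mitochondrial HSP70, the second probe was called in epiSCs (-0.83, adjusted p = 5.0e-04) and in rESCs (0.64, adjusted p = 0.0029) and the brightest was not (-0.37 and 0.39).

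The MEF array was read against the range of the 22 pluripotent arrays with no test, since it is 1 array. Of 55 members 1 lay above that range by more than 2-fold (Hspb6, 11.47 against 7.21 to 9.33) and 1 below it (Hsp90aa1, 5.70 against 7.43 to 11.19), where 4.77% and 2.63% of 9843 named genes did. By less than 2-fold, Dnajc3, an inhibitor of the eIF2alpha kinases in the endoplasmic reticulum, was above the range at 7.89 against 5.85 to 7.10, and Dnajb2 at 7.67 against 5.75 to 7.29. Hspe1 was at 6.08 against 7.01 to 9.70, Hspbap1 at 6.65 against 7.23 to 10.19 and Cct3 at 10.08 against 10.72 to 11.65. Hspb1, at 8.40, lay within the range of the epiSCs and below all other pluripotent arrays, and Dnajc6 was not detected. The MEF array has a high sister-probe score of 13.2, and its part in the low levels of Hsp90aa1 and Hspe1 was not tested.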

How the data were processed

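The authors deposited 1 table of non-normalized probe intensity with a detection p-value per array and a value table of log2 values that they had transformed by variance stabilization and quantile normalized in lumi. Tool versions of the authors: not given in the sources used here. Intensities were background corrected and quantile normalized with neqc (offset 16) in limma 3.58.1 under R 4.3.3, with statmod 1.5.0. Probes were tested if detected in enough arrays at a detection p under 0.01, and p-values were adjusted by Benjamini-Hochberg over all probes tested and called under 0.01. Gene names came from the platform annotation, and columns of the table that belong to no sample used here (2) were left out. The number of arrays limits the precision. Members and gene lists were chosen with earlier results of these data known. Named were 25 role representatives, the 6 largest called rises and falls of each comparison of states, the 3 smallest p between genotypes, the 6 members farthest to either side in MEFs and those with discordant probes. Others are named where a result turned on them. Lines shared by 2 states pair their arrays by cell line. Deviations from group means correlated at 0.12 to 0.45 between media and at 0.45, 0.26, 0.52 and -0.18 for BL3, BL7, BL2 and BL6 between epiSCs and rESCs. An array of another line correlated as well or better for JAG1 (0.18 beside 0.14), JAG2 (0.275 beside 0.274) and B12 (0.16 beside 0.12) between media. The same held for BL6 (0.19 beside -0.18). For PAN1, PUM3, CHE4, BL3, BL7 and BL2 the same line was highest. Data for epiSCs against ESCs were simulated with independent noise over 13856 probes. Of 103 probes changed by 1 on the log2 scale 55.3% were recovered, and of 97 changed by 2, 90.7%. In the measured comparison 37.1% of probes were called, so that recovery there can differ. Alternatives were no background correction, the deposited log2 table, no filter, an intensity trend, the mean of probes, all arrays together, genotype as a covariate, blocks and leaving out each array. The sister-probe score, leaving out arrays that stand apart, the unblocked fit of the 4 shared lines and the alternatives for the interactions were added after seeing the data.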

Additional observations from a re-analysis of the deposited data

Results flagged for a closer look

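Among 140 groups of arrays, 1 per named member and state, 11 held a single array far from the others by Dixon's test. Chance alone gives about 1 in 20 groups.

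In ESCs in serum 5 of these were low values of PUM3, an array of high sister-probe score. Hspe1 was at 7.04 there (9.05 to 9.16 in the other lines), Hsp90aa1 at 8.21 (9.95 to 10.68), Cct8 at 9.10 (10.52 to 10.66), Dnajb9 at 5.84 (7.03 to 7.48) and Dnajc8 at 7.84 (8.30 to 8.46). CHE4 was low in Cct6a, at 11.49 (at least 11.88 elsewhere), and in Dnajc2, at 9.25 (9.50 to 9.62). B12 was high in Hsph1, at 9.10 (7.49 to 8.05).

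In epiSCs the 3 such values were all of BL6, on which all 10 naive ESC genes were detected. Hspb1 was high there at 9.35 (6.85 to 7.55 in the other lines) and Hspbap1 at 8.95 (7.23 to 7.70), and Hsph1 was low at 8.29 (8.83 to 8.97).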

How the results depend on the processing

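Over 3392 alternative values of named members, none reversed a called change, 119 lost and 69 gained a call, and 3204 kept their side of the threshold. The count of members called between epiSCs and ESCs in serum (14) was 13 to 18 under the alternatives and 10 to 15 without each array in turn, but 9 with a replicate block by label number, which only shares a number. Between rESCs and epiSCs (11) it was 9 to 15 and 8 to 14, but 7 with the replicate block of cell lines. In 2i/LIF (13) it was 11 to 17 and 9 to 15, but 8 with the sister-probe score as a covariate, and the block by cell line gave 11. Between rESCs and ESCs (0) it was 3 with all 22 pluripotent arrays together and 0 without each array in turn. Between genotypes in epiSCs (2) it was 4 with an intensity trend, 3 with no background correction and 0 with the deposited log2 table, no filter, the mean of probes, the replicate block by label number, the sister-probe score as a covariate or without each array in turn. The other genotype and interaction counts were 0 throughout. The member below the MEF threshold (1) was lost (0) at 4-fold and with the log2 table. Genes with probes of opposite sign numbered 1 in place of 0 in epiSCs with no background correction or the log2 table, and 2 in place of 1 in 2i/LIF with the log2 table. Where leaving out an array left 1 in a group, that array was assumed to vary like the other groups. The cause of these changes was not tested. Members near background, such as Cct2 and Hspa5, could not be followed between states.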
